A study of Mus musculus with 6 samples.

Results

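Genes that mark the mural cells of blood vessels, 8 in all, were followed in cerebral cortex RNA: Pdgfrb, Rgs5, Vtn, Abcc9 and Notch3, used mostly as pericyte genes, and Acta2, Tagln and Myh11, used as vascular smooth muscle genes. They were chosen by gene name, and all 8 were found among the 54532 genes of the table. The libraries came from mice aged 12 months, 3 wild type (WT) and 3 labelled Fam69c knockout (KO), homozygous for the loss of Fam69c, whose product is a protein of the secretory pathway. The sources used here give neither strain nor sex, nor how the allele was made. Whether libraries of a group stem from different animals is not stated either, so p-values speak only for the variation among these libraries, which may be technical.

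Mural cells wrap the endothelial tube of brain vessels. Pericytes sit in the basement membrane of capillaries, where platelet-derived growth factor B from the endothelium holds them through the receptor PDGFRβ, and they help maintain the blood-brain barrier. Smooth muscle cells ring arteries and arterioles and contract through smooth muscle actin and myosin, and the receptor NOTCH3 keeps arterial smooth muscle in its mature state. In RNA from whole tissue, fewer cells of a type and less RNA per cell cannot be told apart.

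The targeted gene was present in every library. In FPKM (fragments scaled by gene length and library total), Fam69c read 2.03, 1.57 and 2.08 in WT and 1.54, 1.84 and 1.42 in the libraries labelled KO, from 128 to 184 reads each. The groups overlapped, and the difference, labelled KO minus WT on the log2 scale, was -0.19 (95% interval -0.49 to 0.11, limma adjusted p = 0.999), and ran from -0.29 without WT replicate 2 to -0.13 without replicate 3 of either group. The RNA level thus does not check the genotype labels, and directions below are between libraries as labelled. Library totals lay between 30935326 and 35065884 reads. Striatum genes, 10 in all, summed to 158 FPKM in WT replicate 3 and 216 FPKM in replicate 1 labelled KO, against 358 to 464 FPKM in the other 4 libraries, so these 2 libraries stand apart.

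The mural genes spanned a wide range of levels, and their order was nearly the same in every library. Vtn was highest, at 30.6 ± 1.81 FPKM (SD over 6 libraries), followed by Rgs5 at 13.6 ± 0.758 and Pdgfrb at 4.50 ± 0.379 FPKM. Acta2 read 3.13 ± 0.911, Notch3 2.08 ± 0.303, Abcc9 1.28 ± 0.128, Myh11 0.531 ± 0.0849 and Tagln 0.0850 ± 0.0623 FPKM. FPKM is scaled by gene length, so these levels can be set side by side. Neighbours in this order kept it in 6 of 6 libraries, apart from Acta2 and Notch3, which kept it in 5 of 6, and the ranges of Pdgfrb and Acta2 overlapped too. The plot of levels by library shows the steps between genes next to the spread among libraries. Acta2, at 2.14 to 4.23 FPKM, reached the levels of both its neighbours, and Tagln ranged from 0.0421 to 0.18 FPKM.

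**Figure D1:**
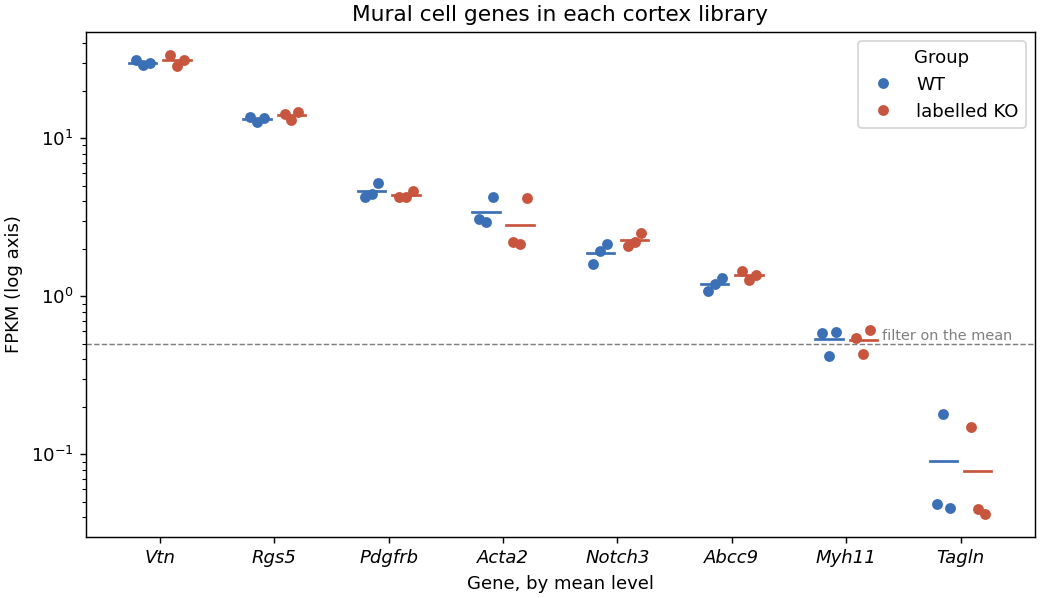
FPKM (log axis) of the 8 mural genes in each library, ordered by mean level. Points are single libraries, WT in blue and labelled KO in red, short lines are group means over 3 libraries, and the dashed line is the filter of 0.5 FPKM on the mean. Vtn and Rgs5 sit in tight clusters, Acta2 spreads from 2.95 to 4.23 FPKM in WT and from 2.14 to 4.17 FPKM labelled KO, and Tagln lies below the filter.

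Promoter sequence is given for 4 pericyte genes to set what lies upstream of the most abundant members, Rgs5 and Vtn, beside what lies upstream of Notch3 and Abcc9, the members with the largest positive differences. Promoter windows from RefSeq (GRCm38.p6, the mm10 build) were used for 5 of the 8 members. Each run reads 5′ to 3′ on the gene's strand, from 250 bases before the RefSeq start up to that start or, for Vtn and Abcc9, up to the first exon base of GENCODE M21. Capitals mark TGGGAA (the core of the motif bound by RBPJ, the Notch effector), GGGCGG (the GC box) and TATAAA, searched on both strands, so a capital run can be the reverse complement. The lines show Rgs5 at chr1:169655251-169655500 and Vtn at chr11:78498870-78499090 on the plus strand, then Abcc9 at chr6:142702316-142702524 and Notch3 at chr17:32166891-32167140 on the minus strand.
Rgs5: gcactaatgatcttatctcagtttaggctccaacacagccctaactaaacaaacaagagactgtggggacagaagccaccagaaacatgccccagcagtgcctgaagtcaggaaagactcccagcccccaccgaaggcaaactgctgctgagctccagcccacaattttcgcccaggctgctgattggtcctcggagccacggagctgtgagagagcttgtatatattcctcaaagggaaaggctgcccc
Vtn: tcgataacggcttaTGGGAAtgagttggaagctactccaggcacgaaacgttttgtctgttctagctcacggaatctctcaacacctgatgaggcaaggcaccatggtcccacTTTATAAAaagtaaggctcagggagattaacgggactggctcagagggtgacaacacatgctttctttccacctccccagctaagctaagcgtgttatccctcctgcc
Abcc9: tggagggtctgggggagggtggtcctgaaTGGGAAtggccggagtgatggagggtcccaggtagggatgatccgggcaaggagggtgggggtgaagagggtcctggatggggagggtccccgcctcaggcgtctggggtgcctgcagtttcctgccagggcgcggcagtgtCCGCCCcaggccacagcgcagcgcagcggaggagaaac
Notch3: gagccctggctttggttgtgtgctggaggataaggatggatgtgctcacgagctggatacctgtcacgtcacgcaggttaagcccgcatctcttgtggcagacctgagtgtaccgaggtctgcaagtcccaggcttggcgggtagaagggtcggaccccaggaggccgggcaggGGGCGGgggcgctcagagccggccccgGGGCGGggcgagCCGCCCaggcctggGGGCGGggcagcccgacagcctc
Rgs5 held no match to these motifs. Notch3 held 4 GGGCGG matches, the farthest at -76 from its start, and Abcc9 held 1 GGGCGG and 1 TGGGAA. The run of Vtn held 1 TGGGAA and 2 overlapping TATAAA matches, 1 on each strand. Outside the runs shown, the windows of 300 bases also held TGGGAA at 12 and 39 for Vtn and at -27 for Acta2. The shares below are over such whole windows. Among 32851 windows of 300 bases (250 before to 50 after a start), 25.6% held TGGGAA, 35.7% GGGCGG, 13.6% TATAAA and 1.63% a CArG box, the site of serum response factor. No CArG box with 6 A or T bases was found in the windows of the 5 members searched, Acta2 among them. Pdgfrb, Tagln and Myh11 were not searched. A match or its lack describes these letters only.

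Pdgfrb encodes the receptor that anchors pericytes to vessels (chromosome 18, 61045150 to 61085061, plus strand). It read 4.23, 4.46 and 5.19 FPKM in WT and 4.24, 4.23 and 4.66 FPKM in the libraries labelled KO. WT replicate 3 was highest and the groups overlapped. Labelled KO minus WT was -0.07 on the log2 scale (SE 0.09, 95% interval -0.27 to 0.14), and its limma adjusted p was 0.999, as it was for each tested member. The sign rested on WT replicate 3, since without it the value was 0.01.

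Rgs5 encodes a regulator that shortens signalling by G proteins and is among the most used pericyte marker genes (chromosome 1, 169655501 to 169695813, plus strand). Its values were 13.7, 12.6 and 13.4 FPKM in WT and 14.3, 13.1 and 14.6 FPKM labelled KO. Replicate 2 was the lowest library of each group, and the groups overlapped. On the log2 scale the difference was 0.08 (95% interval -0.06 to 0.22), and no other member had so narrow an interval. It ran from 0.05 without WT replicate 2 or replicate 3 labelled KO to 0.13 without replicate 2 labelled KO.

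Vtn encodes vitronectin, an adhesive protein of plasma and matrix that brain pericytes make (chromosome 11, 78499091 to 78502324, plus strand). WT libraries read 31.4, 29.1 and 29.7 FPKM and libraries labelled KO 33.5, 28.7 and 31.4 FPKM. The group labelled KO held both the highest and the lowest library. Its log2 difference was 0.05 (95% interval -0.11 to 0.21) and turned to -0.001 without replicate 1 labelled KO.

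Abcc9 encodes SUR2, the regulatory subunit of the ATP-sensitive potassium channel of mural cells (chromosome 6, 142587862 to 142702315, minus strand). It read 1.08, 1.19 and 1.30 FPKM in WT and 1.44, 1.27 and 1.37 FPKM labelled KO. Only WT replicate 3 and replicate 2 labelled KO crossed. A log2 difference of 0.14 resulted (95% interval -0.09 to 0.37), which was 0.09 without WT replicate 1 and 0.18 without WT replicate 3. The antisense gene 5330439B14Rik shares 158 exon bases with Abcc9 and had 0 reads in every library.

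Notch3 encodes the Notch receptor of mural cells, whose human gene is mutated in the small vessel disease CADASIL (chromosome 17, 32120820 to 32166880, minus strand). WT libraries read 1.61, 1.93 and 2.13 FPKM and libraries labelled KO 2.09, 2.20 and 2.52 FPKM. The lowest library labelled KO lay just under the highest WT library, so the groups overlapped by that pair. The log2 difference of 0.22 (SE 0.11, 95% interval -0.05 to 0.48) had an unadjusted p of 0.0957 and an adjusted p of 0.999 in limma. It was 0.13 without WT replicate 1 and 0.34 without the 2 libraries low in striatum genes. The antisense gene Gm17276 overlaps 6.03% of its exon bases and had 36 to 64 reads, against 404 to 727 for Notch3, and the sources used here do not say whether counting used strand.

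Acta2 encodes smooth muscle α-actin (chromosome 19, 34241090 to 34255336, minus strand). It read 3.07, 2.95 and 4.23 FPKM in WT and 2.22, 2.14 and 4.17 FPKM labelled KO, from 127 to 266 reads. Replicate 3 was the high library in each group, and replicates 1 and 2 labelled KO were the 2 lowest of the 6. Labelled KO minus WT was -0.27 on the log2 scale (SE 0.24, 95% interval -0.83 to 0.30, limma adjusted p = 0.999). It was -0.53 without replicate 3 labelled KO and between -0.14 and -0.12 without WT replicate 3 or replicate 1 or 2 labelled KO. Without both libraries low in striatum genes it was 0.00047.

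Myh11 encodes the smooth muscle myosin heavy chain (chromosome 16, 14194535 to 14291372, minus strand). Its values were 0.590, 0.420 and 0.591 FPKM in WT and 0.547, 0.430 and 0.610 FPKM labelled KO, from 98 to 166 reads. Replicate 2 was lowest in each group. The log2 difference was -0.01 (95% interval -0.34 to 0.33), an interval that leaves room for a shift in either direction at this number of libraries and reads.

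Tagln encodes transgelin (SM22α), an actin-binding protein of smooth muscle (chromosome 9, 45929619 to 45936058, minus strand), and it was almost unmeasured. It had 3, 11 and 3 reads in WT and 10, 3 and 3 reads labelled KO. The sums were 17 reads in WT (exact 95% Poisson interval 9.90 to 27.2) and 16 labelled KO (9.15 to 26.0), intervals that cover counting error only. Tagln was the only member below the filter, and with no filter its log2 difference was -0.03 (unadjusted p = 0.811, limma adjusted p = 0.987), on a scale that understates changes at such a level. In GENCODE M21 the antisense gene Gm48529 shares 1241 of its 1988 exon bases (62.4%), and Pcsk7 shares 108. Gm48529 had 8 to 23 reads, 34 in WT and 49 labelled KO, more than Tagln itself, and the part of this overlap in the low Tagln value was not tested.

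Across the members, 7 of 8 passed the filter and 0 of 7 passed an adjusted p of 0.05 in limma, as did 0.00% of the 15694 genes tested. At an unadjusted p under 0.05 there were 0 of 7, against 3.82% of all genes. Groups that do not overlap were found for 0 of the 8 members, against 8.87% of all genes tested. The median log2 fold change over the 8 members was 0.02, with 4 higher and 4 lower in the libraries labelled KO, and the median over all genes was 0.00. A median interval half-width of 0.20 log2 units over the 5 pericyte members, near the 0.21 of all genes, shows what these libraries could resolve. For the 2 tested smooth muscle members it was 0.45.

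**Figure D2:**
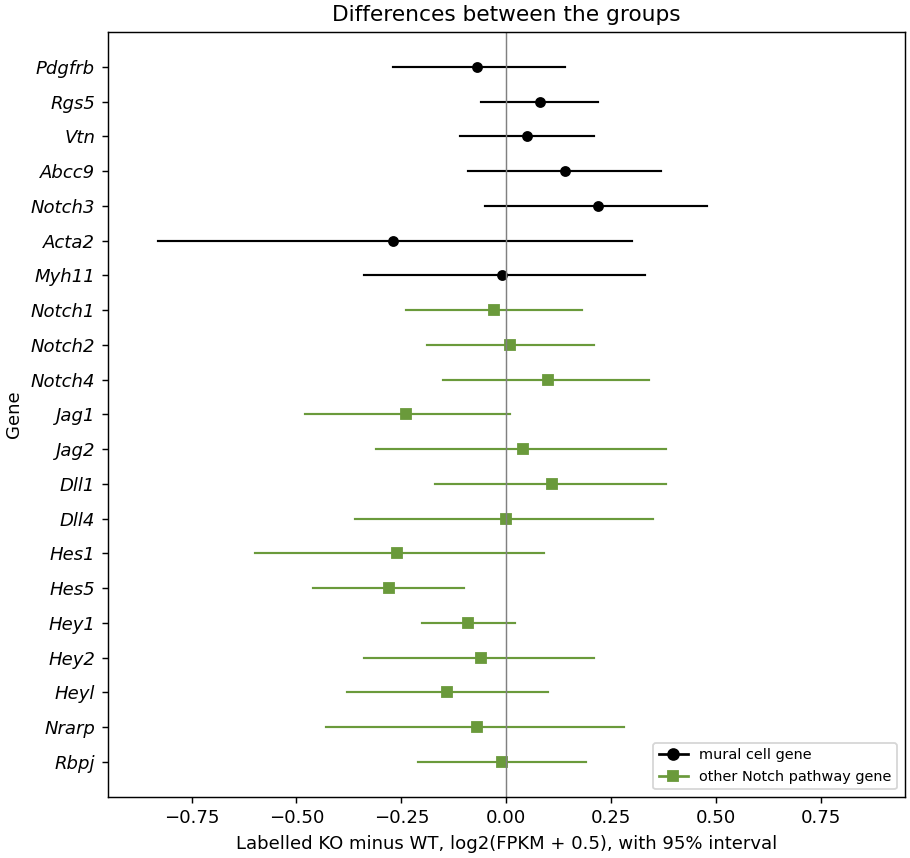
Difference between the groups (labelled KO minus WT, log2 of FPKM + 0.5) with its 95% interval for the 7 members tested (black circles) and 14 other Notch pathway genes (green squares). The interval of each member holds 0, Acta2 has the widest, and Hes5 is the only gene shown whose interval, -0.46 to -0.10, leaves out 0.

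The members differed in how much they varied between libraries. The coefficient of variation over 6 libraries was 5.57% for Rgs5, 5.93% for Vtn, 8.41% for Pdgfrb, 14.6% for Notch3, 16.0% for Myh11 and 29.1% for Acta2, with Abcc9 between Pdgfrb and Notch3, and the median over all genes tested was 8.6%. Read counting alone would give 2.21% for Rgs5, 7.36% for Acta2 and 8.64% for Myh11. The ratio of Acta2 to Myh11 ran from 4.05 in replicate 1 labelled KO to 7.16 in WT replicate 3.

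The pattern of Acta2, with replicate 3 of each group on top, was looked for in the lists after its values were seen. WT replicate 3 and replicate 3 labelled KO were the 2 highest libraries for Acta2, Myh11 and Pdgfrb among the 7 tested members, and for 13.8% of all genes tested. Acta2 itself set the pattern, and Myh11 was nearly tied, at 0.591 FPKM in WT replicate 3 and 0.590 in WT replicate 1. Both replicate 3 libraries were also the 2 highest for 6 of 11 basement membrane genes (54.5%): Col4a1, Col4a2, Lama4, Lama5, Lamb2 and Nid1. This list is singled out here because its share was the highest of all pathway and marker lists. Next came the potassium channel genes, with 1 of 3. Col4a2, which encodes a chain of the type IV collagen of vessel walls, stood 0.22 and 0.37 log2 units above its mean in those libraries and at -0.29 and -0.15 in replicates 1 and 2 labelled KO. The share was nearer to that of all genes among other smooth muscle genes, 2 of 12 (16.7%), and among other pericyte genes, 3 of 15, so most genes of these cell types did not have the pattern of Acta2. This pair was on top for 0 of 10 fibroblast and meninges, 0 of 5 blood, 0 of 7 astrocyte and 0 of 7 microglia genes, and for 3 of 15 endothelial genes. With so few genes a list, 0 is not far from the 13.8% of all genes. The map of centred levels shows the pattern in Acta2 and Col4a2, and its source was not tested.

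**Figure D3:**
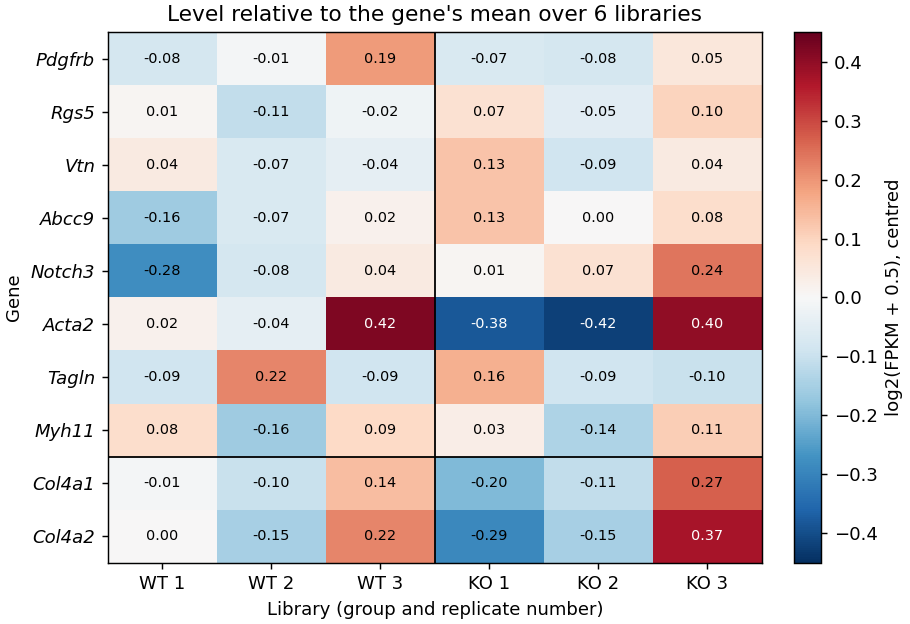
Level of each gene in each library relative to that gene's mean over the 6 libraries (log2 of FPKM + 0.5), for the 8 members and, below the line, Col4a1 and Col4a2. Red is above and blue below the mean, and Acta2 and Col4a2 are red in replicate 3 of both groups and blue in replicates 1 and 2 labelled KO.

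Summed over members, the 5 pericyte genes gave 52.0, 49.2 and 51.7 FPKM in WT and 55.6, 49.5 and 54.5 FPKM labelled KO. The sum for 15 endothelial genes lay between 118 and 135 FPKM. The pericyte sum was 0.383 to 0.426 of the endothelial sum in WT and 0.418 to 0.426 labelled KO, so the groups overlapped. Smooth muscle genes amounted to 0.0714 to 0.0942 of the pericyte sum in WT and 0.0524 to 0.0884 labelled KO, where replicate 3 was the high library. Single genes dominate these sums. Acta2 made 4.17 of 4.82 FPKM of the smooth muscle sum in replicate 3 labelled KO, so the ratio repeats its pattern. Vtn and Rgs5 gave 31.4 and 13.7 of the 52.0 FPKM of the pericyte sum in WT replicate 1.

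Within libraries, Pdgfrb was lower relative to Notch3 in the group labelled KO. The ratio was 2.63, 2.31 and 2.43 in WT and 2.03, 1.92 and 1.85 labelled KO. Pdgfrb over Abcc9 was 3.91, 3.73 and 3.98 in WT and 2.94, 3.33 and 3.39 labelled KO. These were the 2 of 21 ratios between tested members (9.52%) whose groups did not overlap, and they were picked out after the values were seen, so they carry no test. Leaving out the 2 libraries low in striatum genes cannot make these groups overlap, so it is no check on the ratios. Both ratios hold Pdgfrb, and no share over ratios of other gene pairs was computed. For levels of single genes, an unlike measure, 8.87% did not overlap.

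**Figure D4:**
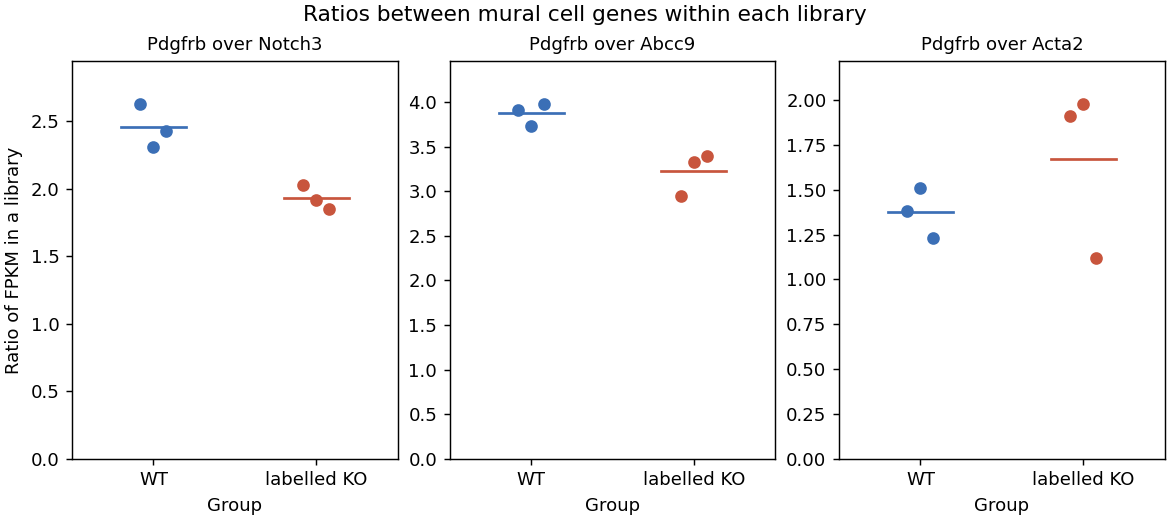
Ratios of FPKM within each library for Pdgfrb over Notch3, Pdgfrb over Abcc9 and Pdgfrb over Acta2, by group. Points are libraries and lines are means over 3; for the first 2 ratios all labelled KO points lie below all WT points, and for the third the groups overlap.

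Genes that act with the members were read from the same fit. The lists, 11 in all, held 110 such genes, of which 92 were tested, and 0 of 92 passed in limma. An unadjusted p under 0.05 was reached by 1 of 92 (1.09%, against 3.82% of all genes). Groups did not overlap for 5 (5.43%, against 8.87%), each lower in the libraries labelled KO: Foxc1, Jag1, Hes5, Hey1 and Heyl. Of all genes tested, 4.70% were lower without overlap.

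In the PDGF list 0 of 5 passed, with 1 higher and 4 lower. Pdgfb, the endothelial ligand of PDGFRβ, read 8.88 ± 0.917 FPKM in WT and 8.63 ± 0.560 FPKM labelled KO (SD, n = 3). Pdgfa, the ligand of PDGFRα, had a log2 fold change of -0.07 (95% interval -0.23 to 0.09) and Pdgfc of 0.14 (-0.16 to 0.45). With 1 library left out, Pdgfa ran from -0.11 without WT replicate 2 to -0.02 without WT replicate 1, and Pdgfc from 0.07 without replicate 2 labelled KO to 0.23 without WT replicate 1 or replicate 1 labelled KO. Pdgfd read 0.979 ± 0.0545 and 0.951 ± 0.0550 FPKM. The partner receptor gene Pdgfra, which marks oligodendrocyte precursors and fibroblasts rather than mural cells, read 4.16 ± 0.280 and 3.93 ± 0.283 FPKM.

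The Notch list held 14 tested genes, 4 higher and 10 lower, with a median log2 fold change of -0.04 and 0 past the adjusted threshold. Groups did not overlap for 4 of the 14 (Jag1, Hes5, Hey1 and Heyl), each lower labelled KO, against 4.70% of all genes tested. No test was run on this count. Hey1 was the most abundant, at 18.5 ± 0.540 and 17.4 ± 0.520 FPKM. Hes5, a transcriptional repressor switched on by Notch, mainly in astrocytes and progenitors, read 7.49, 6.57 and 7.81 FPKM in WT and 5.61, 6.07 and 6.04 FPKM labelled KO. All 3 libraries labelled KO lay below all 3 WT libraries, and the log2 difference was -0.28 (SE 0.08, unadjusted p = 0.00807, limma adjusted p = 0.999), or -0.20 (unadjusted p = 0.0582) without the 2 libraries low in striatum genes. The Hes5 difference was -0.35 without WT replicate 2 and -0.23 without WT replicate 3. Jag1, a ligand for NOTCH3 on neighbouring cells, averaged 1.62 ± 0.204 in WT and 1.29 ± 0.0889 FPKM labelled KO, a difference of -0.24 (95% interval -0.48 to 0.01). This became -0.28 without WT replicate 2, -0.16 without WT replicate 3 and -0.12 without the 2 libraries low in striatum genes. Hey1 and Heyl, Notch targets of which Heyl is typical of vascular smooth muscle, had log2 fold changes of -0.09 and -0.14. Notch3 itself had a positive value and the genes named here negative ones, while 4 of the 14 in the list were higher too. None of them passed.

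For the potassium channel, Kcnj8, the Kir6.1 pore that pairs with SUR2 in mural cells, read 1.61 ± 0.0779 FPKM in WT and 1.66 ± 0.144 FPKM labelled KO. The neuronal forms were more abundant, with Kcnj11 at 17.7 ± 0.245 and 16.8 ± 1.21 FPKM and Abcc8 at 5.89 ± 0.848 and 5.78 ± 0.577 FPKM. In the RGS list 0 of 5 tested genes passed. Rgs4, a relative of Rgs5 abundant in cortical neurons, read 142 ± 16.2 and 144 ± 2.54 FPKM, and Rgs16, another relative, 4.26 ± 0.0549 and 4.20 ± 0.0534 FPKM. Rgs2 had a log2 fold change of -0.16 (95% interval -0.42 to 0.10), which ran from -0.07 without WT replicate 2 and -0.09 without replicate 1 labelled KO to -0.26 without WT replicate 3.

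Other pericyte genes gave 0 of 15 past the threshold, with 10 higher and 5 lower and a median of 0.03. Lhfp was the most abundant, at 5.38 ± 0.544 and 5.54 ± 0.210 FPKM. Higd1b, a hypoxia-related mitochondrial gene concentrated in pericytes, had a log2 fold change of 0.24 (95% interval -0.19 to 0.66), with 3.43 FPKM in replicate 3 labelled KO. That value was 0.05 without this library and 0.40 without replicate 1 labelled KO. Foxc1, a transcription factor needed for mural cell development, averaged 1.64 ± 0.0984 in WT and 1.47 ± 0.0759 FPKM labelled KO, a difference of -0.11.

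Other smooth muscle genes gave 0 of 12 past the threshold, with 8 higher and 4 lower and a median of 0.04. Of the 20 genes in the list, 8 were below the filter, among them Cnn1, which encodes calponin (0.0714 to 0.211 FPKM), Actg2 (0.0411 to 0.108) and Des (0.359 to 0.565). Tagln was therefore not alone in being scarce. Myl9, a myosin light chain, was the most abundant, at 5.26 ± 0.523 and 5.33 ± 0.338 FPKM, and Casq2 and Mustn1 had log2 fold changes of 0.16 and 0.14. Without WT replicate 2 these were 0.08 and 0.04, and without WT replicate 1 they were 0.26 and 0.20.

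The regulators of contractile genes were mostly those that neurons express too. Srf, the factor that binds CArG boxes, read 21.7 ± 0.739 and 20.6 ± 1.54 FPKM, and its cofactors Mkl1 and Mkl2 12.6 ± 0.198 and 12.0 ± 0.677, and 31.2 ± 0.602 and 31.0 ± 1.42 FPKM. Myocd, the cofactor restricted to muscle, read at most 0.0349 FPKM in any library. Klf4, which restrains the contractile program, read 1.89 ± 0.415 and 1.72 ± 0.401 FPKM. The abundant Mef2c averaged 40.1 ± 4.27 and 39.7 ± 2.78 FPKM, Elk1 11.1 ± 0.173 and 11.1 ± 1.24, and Prkg1 0.631 ± 0.0512 and 0.643 ± 0.166. Of these regulators 0 of 7 tested passed, with 1 higher and 6 lower.

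Several relatives of the contractile members far exceeded them. Actb, cytoplasmic β-actin, read 352 ± 19.2 FPKM in WT and 340 ± 20.9 FPKM labelled KO, and Tagln3, a neuronal transgelin, 207 ± 14.1 and 202 ± 11.1 FPKM. Acta1, skeletal α-actin, read 8.95 ± 0.516 and 8.90 ± 0.818 FPKM, above Acta2. Actin genes share coding sequence, and how the authors' counting treated reads with several matches is not given in the sources used here, so the split between actins is uncertain. The nonmuscle myosin gene Myh14 averaged 5.70 ± 0.779 and 6.26 ± 0.327 FPKM. In this list 0 of 8 tested genes passed, with 4 higher and 4 lower.

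Genes of matrix and growth factor signals around mural cells gave 0 of 4 past the threshold for vitronectin receptors, 0 of 9 for TGF-β and angiopoietin signals and 0 of 11 for the basement membrane. Itgav, the integrin chain that binds vitronectin, had a log2 fold change of -0.10 (95% interval -0.29 to 0.09), Itgb1, a β chain, of -0.05, and the β chain gene Itgb5 was the most abundant of that list, at 14.6 ± 0.848 and 14.4 ± 1.02 FPKM. Itgav was -0.02 without replicate 3 and -0.16 without replicate 1 labelled KO, and Itgb1 -0.02 without WT replicate 2 and -0.09 without replicate 1 labelled KO. Tek, the endothelial receptor for angiopoietin from mural cells, had a log2 fold change of 0.24 (-0.07 to 0.54), and Tgfb1 of -0.17 (-0.43 to 0.09). Without replicate 3 labelled KO these became 0.14 and -0.26. Tek was 0.16 without WT replicate 1 and 0.34 without WT replicate 3, and Tgfb1 was -0.10 without replicate 1 labelled KO. Eng, an endothelial co-receptor, was the most abundant of these, at 6.80 ± 0.282 and 6.88 ± 0.607 FPKM. Col4a2 was the most abundant basement membrane gene, at 9.86 ± 1.35 and 9.66 ± 2.57 FPKM, while Hspg2 (perlecan) and Lamb2 had log2 fold changes of 0.14 and -0.10. Hspg2 was 0.08 without WT replicate 1, 0.09 without replicate 3 labelled KO and 0.20 without WT replicate 3. Lamb2 ran from -0.04 without replicate 2 labelled KO and -0.05 without WT replicate 3 to -0.16 without replicate 3 labelled KO.

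Other cells that share vessels or membranes with mural cells were present in every library. The 12 fibroblast and meninges genes summed to 34.5 to 35.2 FPKM in WT and 28.4 to 34.9 FPKM labelled KO, and 0 of the 12 were at 0 in every library. Islr, the most abundant, averaged 6.58 ± 0.892 and 6.37 ± 1.02 FPKM. Of their 10 tested genes, 2 were higher and 8 lower labelled KO, with a median log2 difference of -0.13, against 8156 lower of 15694 genes tested. An unadjusted limma p under 0.05 was reached by 2 of the 10, against 3.82% of all genes, and 0 passed the adjusted threshold. Of these 10, 1 was higher without overlap (Lum, 0.516 ± 0.0271 and 0.744 ± 0.107 FPKM), against 4.17% of all genes. Lower without overlap were 3, Fmod (7.39 ± 0.305 and 5.47 ± 1.30 FPKM), Col1a1 and Col1a2, against 4.70% of all genes. Col3a1, below the filter, was lower without overlap too. Blood genes, 5 in all, summed to 110 to 126 and 73.7 to 126 FPKM, led by Hbb-bs. All 5 had a negative log2 difference, with a median of -0.14, and 0 of them had groups without overlap. The only tested choroid plexus gene, Ttr, read 2.10, 3.10 and 2.79 FPKM in WT and 8.91, 7.58 and 3.50 FPKM labelled KO. These WT values lay below all 3 labelled KO. The other 5 genes of that list, all below the filter, did not move together, Aqp1 being lower labelled KO without overlap, and the median log2 difference over the list was 0.02. Astrocyte genes summed to 550 to 596 and 522 to 587 FPKM. The leading genes of further lists had overlapping groups: Cldn5 of endothelium averaged 26.5 ± 3.15 and 26.3 ± 3.35 FPKM, and the same held for Aldoc (astrocytes), Nrgn (excitatory neurons), Sst (inhibitory neurons), Mbp (oligodendrocytes), Olig1 (their precursors), C1qa (microglia) and Penk (striatum). Not every gene of these lists overlapped. Of 15 endothelial genes, 2 were higher and 1 lower without overlap. Of 7 astrocyte genes 2 were higher without overlap, and of 6 excitatory neuron genes 1 was. The lists of inhibitory neurons, oligodendrocytes, their precursors, microglia and striatum held 0 such genes. Over all genes tested, 4.17% were higher and 4.70% lower without overlap. The part of these cells in the mural values was not tested.

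Among 15687 other tested genes, those with profiles nearest to the mean of the pericyte members were Micall1, Clcc1, Tfdp1, Fnbp1 and Ss18. Likeness was the root mean square difference between centred log2 levels over 6 libraries, 0.0129 for Micall1 and 0.0206 for Ss18. The members themselves lay farther from their own mean profile, from 0.0442 for Abcc9 to 0.105 for Notch3. Nearest to the mean of the 3 smooth muscle members were Usp21, Zfp772, Exosc8, Pear1 and Cnppd1, at 0.0336 to 0.0386, with Acta2 at 0.220, Tagln at 0.196 and Myh11 at 0.0936. With 6 libraries and this many genes searched, such likeness only describes these libraries.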

How the data were processed

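The authors deposited 1 table of FPKM values per gene, per the file headers, from 6 cortex libraries, not pooled. The submitters' processing notes name Bowtie and build mm10. For the counting program, its use of strand and the annotation, the entry is: not given in the sources used here. FPKM times gene length gave whole multiples of 1 step per library (100% of values above 0, within 0.001), taken as reads. A filter of a mean of at least 0.5 FPKM left 15694 genes. The groups were compared on log2(FPKM + 0.5) with limma 3.58.1 in R 4.3.3 (variance trend, no block, two-sided, Benjamini-Hochberg over all genes tested, threshold 0.05), which understates changes of low genes. The fit was tested on simulated data. Exon overlaps came from GENCODE M21.

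The members, lists and rule for named genes were chosen with earlier results of these data known. The rule takes the members, all PDGF, channel and regulator genes, from each pathway list the most abundant gene and the 2 of smallest p, the most abundant of each marker list, and the 5 nearest profiles. Other genes named (Heyl, Cnn1, Actg2, Des, Tagln3, Acta1, Fmod, Lum, Col1a1, Col1a2, Col3a1, Aqp1, Col4a1 and further basement membrane genes) were picked with their values in view. Every pair of libraries differed by more than counting noise (lowest median chi-square, 2.89 times its level). No library column was left unused. Plots were drawn with matplotlib 3.10.9.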

Additional observations from a re-analysis of the deposited data

How the results depend on the processing

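With 3 libraries a group, a typical unadjusted interval was 0.21 log2 units to either side. This width and the adjustment over all genes limit what the members could show, and 3 to 11 reads a library limit Tagln. Of 488 fold changes of 29 genes under 17 other settings, 475 kept their sign and 13 turned, and 0 members or pathway genes passed in limma under any setting. Apart from Srf, the genes that turned were members: Pdgfrb, Vtn, Acta2 and Myh11. The pooled count thus makes the members look steadier than they were. Notch3, Abcc9, Rgs5 and Hes5 kept their sign throughout. The count of genes at an unadjusted p under 0.05 was 599 (3.82%), against 1214 of 32400 with no filter (3.75%), 1420 with sample weights (9.05%), 1023 without WT replicate 3 (6.52%), 901 without replicate 1 labelled KO (5.74%) and 2092 (13.3%) without the 2 libraries low in striatum genes. Among these, Notch3 was counted with sample weights, the replicate block, without WT replicate 3 and without the 2 libraries low in striatum genes, and Acta2 with the block and without replicate 3 labelled KO. Leaving out 1 library gave -0.12 to 0.01 for Pdgfrb, -0.001 to 0.11 for Vtn, -0.09 to 0.07 for Myh11 (among them 0.03 without WT replicate 1 and 0.04 without WT replicate 3), and -0.53 to -0.12 for Acta2. Sample weights gave -0.0027 for Vtn. TPM scaling gave 0.0049 and voom on the recovered reads 0.0047 for Myh11. Without WT replicate 3 and replicate 1 labelled KO together, a setting chosen after the data were seen, the values were 0.03 for Pdgfrb, -0.01 for Vtn, 0.00047 for Acta2, 0.02 for Myh11 and 0.01 for Srf, and 1 gene of all tested passed, which is no member. The median over the 8 members ran from -0.01 to 0.09 with 1 library left out and was -0.02 with sample weights. Nothing in the labels says that replicate numbers pair the libraries. Deviations of same-numbered libraries correlated at 0.0816, 0.0135 and 0.210, and 3 of 6 libraries correlated best with their own number. With 3 libraries a group, these values cannot decide whether the libraries are paired. With the replicate block 0 genes passed, as without it, the unadjusted count was 837 against 599, and Acta2 stayed at -0.27 and Notch3 at 0.22.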
